A study of Homo sapiens with 4 samples.

Results

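Genes for collagens, laminins and other proteins of the extracellular matrix were examined in H1 cells treated with an ERK5 inhibitor. The set holds every gene of the deposited table with a collagen chain symbol or a laminin chain symbol, together with FN1, TNC, SPP1, FBN1, FBN2, VTN, NID1, NID2, HSPG2, AGRN, SPARC, FSTL1 and SULF1. It came to 62 of the 19775 listed genes: 40 collagen genes, 10 laminin genes and 12 others. A further 7 genes that fit these symbols in GENCODE release 29 were not listed, namely COL3A1, COL6A5, COL6A6, COL19A1, LAMB3, LAMB4 and VTN.

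H1 is an established human embryonic stem cell line, labelled as wild type. The treated cells were cultured for 12 h in E8, a defined medium with insulin, FGF2 and TGFβ, to which 1 µM XMD892 had been added. XMD892 is a small molecule that inhibits ERK5, a mitogen-activated protein kinase. Poly(A)-selected RNA was sequenced, and 2 libraries, replicate 1 and replicate 2, could be matched to the labels, with 18528689 and 20217648 reads on listed genes. The 2 samples in E8 alone were not analysed here, since the table's untreated columns are named for a later time than these samples' labels. A further column, named as the third XMD892 replicate at 12 h, matched no sample and was not used either. No effect of the compound is therefore reported: what follows describes transcript levels under treatment and how far both libraries of that treatment lay apart. Whether these came from separate cultures, and which coating the cells grew on, is not given in the sources used here, and their SDs could reflect technical variation alone.

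The matrix of early embryonic cells is mostly basement membrane. Laminins, trimers of an α, a β and a γ chain, form a sheet on the cell surface, type IV collagen forms a second network, and nidogens and the proteoglycans perlecan and agrin link them. Pluripotent cells in culture attach to laminin, vitronectin or fibronectin through integrins. Fibrillar collagens and the proteins that bind them belong mainly to connective tissue, and many of them are used as signs of a mesenchymal state.

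Levels are given as RPKM (reads per kilobase of exon, scaled to the library's reads on listed genes), so that genes of different length can be compared. Of the 62 genes, 33 reached 1 RPKM in both libraries, against 11471 of the 19262 genes with a known exon length. Among the 62, 16 reached 10 RPKM in both and 9 stayed under 0.1 RPKM in both, counts that were not taken over all genes. The median of the 62 mean levels was 2.42 RPKM, against 2.31 RPKM over the 19262 genes with a known exon length. In replicate 1 alone the median was 2.59 RPKM, against 2.35 over all genes, and in replicate 2 alone 1.45 RPKM, against 2.20. By its median, the set was thus near the level of all genes in the mean and in replicate 1, but below it in replicate 2. SPARC, FSTL1, COL6A1, COL26A1, COL18A1 and LAMC1 were the highest by mean RPKM. Together the 62 genes took 0.499% of the reads in replicate 1 (95% Clopper-Pearson interval 0.496 to 0.503) and 0.377% in replicate 2 (0.374 to 0.380). These and all later intervals cover counting error only. The labels name no molecular identifiers, so reads may include copies of the same molecule and the intervals may be too narrow.

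**Figure D1:**
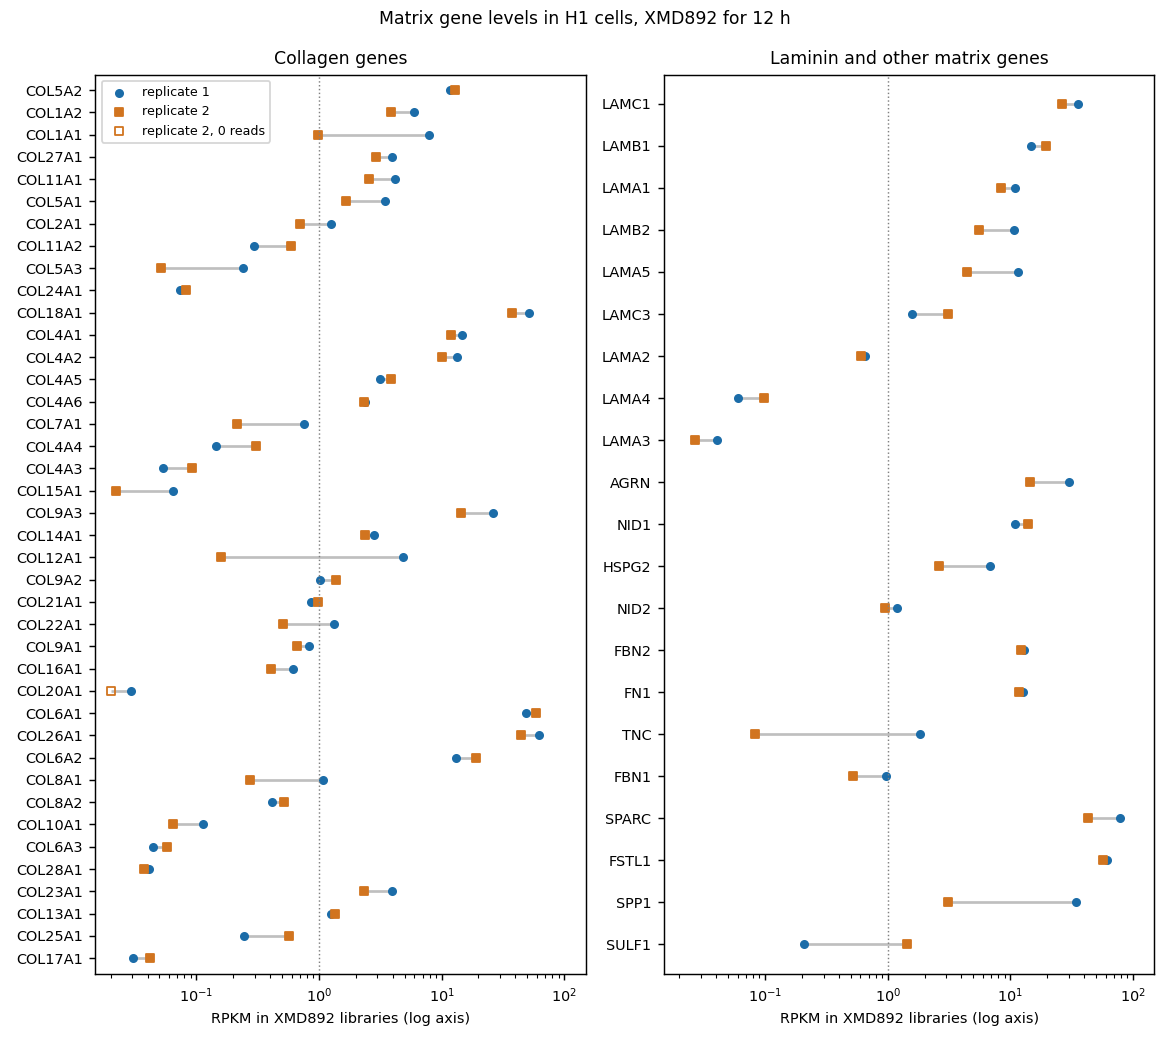
RPKM of the 40 collagen genes (left) and 21 laminin and other matrix genes (right) in XMD892 replicate 1 (circles) and replicate 2 (squares) on a log axis, with a dotted line at 1 RPKM. COL12A1, TNC, SPP1 and COL1A1 have the widest gaps toward replicate 1, and SULF1 has the widest toward replicate 2; the open square marks COL20A1, with 0 reads in replicate 2.

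Among the basement membrane collagens, COL18A1, COL4A1 and COL4A2 led. COL18A1, a collagen with heparan sulfate chains whose C-terminal fragment is endostatin, stood at 51.6 RPKM in replicate 1 and 37.8 in replicate 2, or 44.7 ± 9.70 (SD, n = 2). COL4A1 stood at 14.7 and 12.0 RPKM, and COL4A2 at 13.3 and 10.01 RPKM. These encode the chains of the most widespread type IV collagen. COL4A5 was at 3.14 and 3.86 RPKM and COL4A6 at 2.38 and 2.32 RPKM. The remaining type IV chains, which adult glomerular basement membrane uses, had few reads: COL4A4 had 27 and 63 reads and COL4A3 had 9 and 17 reads. COL7A1, the anchoring fibril collagen of skin, stood at 0.760 and 0.214 RPKM. COL15A1 had 8 and 3 reads.

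At least 1 laminin chain of each kind, α, β and γ, was above 10 RPKM in replicate 1, and the α chains of muscle, vessels and epidermis were low. LAMC1, the common γ chain, stood at 35.8 RPKM in replicate 1 and 26.7 in replicate 2. Its usual β partner LAMB1 stood at 14.8 and 19.5 RPKM, and LAMB2, the β chain of synaptic and glomerular laminins, at 10.8 and 5.61 RPKM. Of the α chains, LAMA1, the early embryonic chain, was at 11.0 and 8.47 RPKM, and LAMA5, the α chain of the laminin most used to grow pluripotent cells, at 11.5 and 4.41 RPKM. LAMA2, the chain of muscle laminin, stood at 0.657 and 0.606 RPKM. LAMA4, of vessels, had 13 and 23 reads, and LAMA3, of epidermis, had 11 and 8. LAMC3 was at 1.57 and 3.10 RPKM.

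Linkers of the basement membrane were all detected. AGRN (agrin), a heparan sulfate proteoglycan, stood at 30.2 RPKM in replicate 1 and 14.4 in replicate 2. NID1 (nidogen, which bridges laminin and type IV collagen) was at 10.9 and 14.1 RPKM, and its relative NID2 at 1.20 and 0.960 RPKM. HSPG2 (perlecan) was at 6.87 and 2.64 RPKM.

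Adhesive and microfibril glycoproteins divided into close and discordant genes. FN1 (fibronectin) had 4041 reads in replicate 1 and 4134 in replicate 2, or 12.2 ± 0.556 RPKM (SD, n = 2). FBN2, the fibrillin of embryonic microfibrils, had 3162 and 3278 reads, or 12.6 ± 0.456 RPKM, while FBN1, the fibrillin that prevails after birth, stood at 0.961 and 0.518 RPKM. TNC (tenascin-C), a glycoprotein of remodelling matrix, was at 1.84 RPKM in replicate 1 and 0.0821 in replicate 2. FN1 and FBN2, whose log2 differences of 0.01 and 0.03 turned to -0.09 and -0.07 with total reads as the scale, were nearly level between the libraries, whereas TNC was far lower in replicate 2.

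Secreted proteins that modify matrix and signalling included the most abundant genes of the set. SPARC (osteonectin), which binds collagen, stood at 79.1 RPKM in replicate 1 and 43.3 in replicate 2. FSTL1, a follistatin-like glycoprotein, had 9996 and 10122 reads, or 59.6 ± 3.15 RPKM (SD, n = 2), with a difference of -0.01 on the log2 scale. SPP1 (osteopontin), a phosphoprotein that integrins bind, stood at 34.3 and 3.09 RPKM. SULF1, an endosulfatase that trims heparan sulfate and so alters growth factor binding, stood at 0.207 and 1.43 RPKM. SPP1 and SULF1 thus had opposite orders between the libraries.

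Collagens of microfibrils and short-chain networks were mostly a matter of 3 genes. COL6A1 stood at 49.0 RPKM in replicate 1 and 59.0 in replicate 2, and COL6A2 at 13.2 and 19.2 RPKM. Both encode chains of type VI collagen, the beaded filament collagen. The third chain of the classical trimer, COL6A3, had 16 and 23 reads, or 0.0510 ± 0.00987 RPKM. COL26A1, a secreted collagen-like protein, stood at 62.1 and 44.6 RPKM. COL8A1 was at 1.07 and 0.273 RPKM and COL8A2, also of type VIII collagen, at 0.416 and 0.519 RPKM. COL10A1, the hypertrophic cartilage collagen, had 8 and 5 reads, and COL28A1 had 5 and 5.

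The fibrillar collagens had a median of 2.96 RPKM by mean level, against 2.31 over all genes. The median was 3.69 RPKM in replicate 1, against 2.35 over all genes, and 1.32 in replicate 2, against 2.20. At 1 RPKM or more in both libraries were 5 of 10 genes, against 11471 of 19262 over all genes. COL5A2 was the highest at 11.7 RPKM in replicate 1 and 12.9 in replicate 2, and COL5A1, its partner in type V collagen, stood at 3.45 and 1.65 RPKM. COL1A1, the major chain of type I collagen, stood at 7.85 and 0.987 RPKM, and COL1A2, the other chain, at 6.01 and 3.84 RPKM. COL27A1 was at 3.92 and 2.91 RPKM, COL11A1 at 4.18 and 2.56 RPKM, and the cartilage collagen COL2A1 at 1.25 and 0.698 RPKM. COL11A2 had 37 and 81 reads, COL5A3 had 30 and 7, and COL24A1 had 13 and 16.

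Collagens that sit on the surface of fibrils included COL9A3, the highest of its group at 26.0 RPKM in replicate 1 and 14.4 in replicate 2. The other chains of type IX collagen, a cartilage heterotrimer, were far lower, COL9A2 at 1.01 and 1.38 RPKM and COL9A1 at 0.827 and 0.663 RPKM. COL12A1, which associates with type I collagen fibrils in dense connective tissue, stood at 4.84 and 0.159 RPKM. COL14A1, a relative of COL12A1, stood at 2.81 and 2.37 RPKM. COL22A1, of tissue junctions, was at 1.33 and 0.505 RPKM, COL21A1 at 0.869 and 0.985 RPKM, and COL16A1 at 0.617 and 0.406 RPKM. COL20A1 had 6 reads in replicate 1 and 0 in replicate 2, where a count of 0 allows up to 3 reads. Among the transmembrane collagens COL23A1 stood at 3.91 and 2.31 RPKM, and COL25A1, known from amyloid plaques, at 0.247 and 0.566 RPKM, while COL13A1, of the neuromuscular junction, had 138 and 161 reads. COL17A1, of epidermal hemidesmosomes, had 4 and 6 reads.

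Several chains that assemble into the same molecule differed in transcript level, while COL4A1 and COL4A2 were close, at ratios of 1.10 and 1.19. The RPKM of COL6A1 was 3.72 times that of COL6A2 in replicate 1 and 3.07 times in replicate 2. COL9A3 exceeded COL9A2 25.8 times and 10.4 times. LAMC1 exceeded LAMB1 2.42 times in replicate 1 and 1.37 times in replicate 2, and it exceeded LAMB2 3.32 and 4.76 times. With the longest transcript as the length, LAMC1 to LAMB1 was 1.83 in replicate 1 and 1.03 in replicate 2, so this pair was then nearly level in replicate 2. LAMB1 and LAMB2 were compared as related β chains, not as partners. Their order, LAMB1 above LAMB2, held in both libraries, at ratios of 1.37 and 3.48.

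Several of these ratios changed between the libraries by more than counting error. COL1A2 stood at 0.765 times COL1A1 in replicate 1 (95% exact counting interval 0.708 to 0.826) and at 3.89 times in replicate 2 (3.33 to 4.57), so with merged exons as the length the order of the type I chains turned over. LAMA5 to LAMA1 was 1.04 in replicate 1 (0.992 to 1.10) and 0.520 in replicate 2 (0.486 to 0.556). COL4A1 to COL4A2 was 1.10 (1.06 to 1.15) and 1.19 (1.14 to 1.25), and these intervals overlap. With the longest transcript as the length, COL4A1 fell below COL4A2, at 0.828 and 0.896, so the order of this pair is not settled by the data. The same change set COL1A2 to COL1A1 at 0.976 and 4.97, so the type I chains were then nearly level in replicate 1 and their order there is not settled either.

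**Figure D2:**
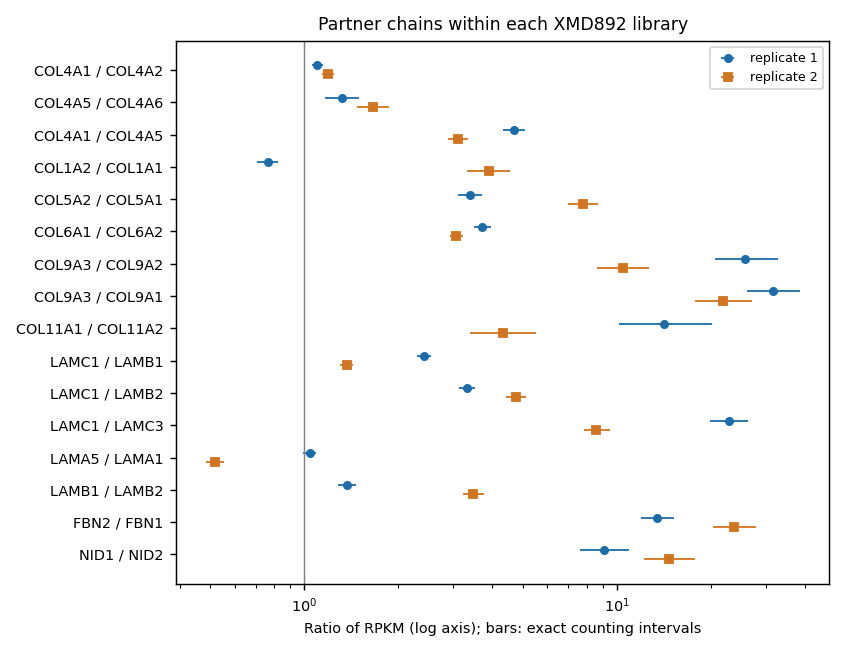
Ratio of RPKM between 16 pairs of related or partner chains in XMD892 replicate 1 (circles) and replicate 2 (squares) on a log axis, with exact 95% counting intervals as bars. The type IV pair COL4A1 and COL4A2 lies close to 1 in both libraries, and COL1A2 to COL1A1 moves from 0.765 to 3.89.

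Differences between the libraries were taken for the 57 members whose normalized count averaged 10 or more, as log2(normalized count + 1) in replicate 2 minus replicate 1. Folds in the text are on this scale, which understates the difference of low genes. There is 1 library on each side, so no test was possible and no p-value is given. In bulk RNA, a smaller number of cells of a type and less RNA per cell cannot be told apart. A gap of at least 2-fold was found for 16 of the 57 members (28.1%), against 10.9% of all 16148 genes above the minimum. Of these, 11 were higher in replicate 1 (19.3%, against 6.14% of all genes) and 5 in replicate 2 (8.77%, against 4.76%). The median difference was -0.28, against 0.02 over all genes, and 35 members (61.4%) were higher in replicate 1, against 47.9% of all genes. These medians moved to -0.38 and -0.08 when total reads set the scale. For 41 of 57 members (71.9%) equal levels lay outside the counting interval, against 58.1% of all genes. These counts describe a set that was chosen with results of these libraries known.

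Matrix genes have long transcripts, with a median exon length of 8736 bases against 4090 over all genes. Among the 3287 tested genes whose exon length lay within the members' interquartile range, 6740 to 11189 bases, 6.63% were at least 2-fold apart, 64.3% had an interval without equal levels and the median difference was -0.04. Across the 57 members, Spearman's rho of the difference with exon length was -0.098, against -0.14 across all genes. The levels of the 57 members in the 2 libraries had a Pearson's r of 0.894 on the log2 scale, against 0.968 across all genes. Genes are not independent replicates, and they share the same libraries.

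**Figure D3:**
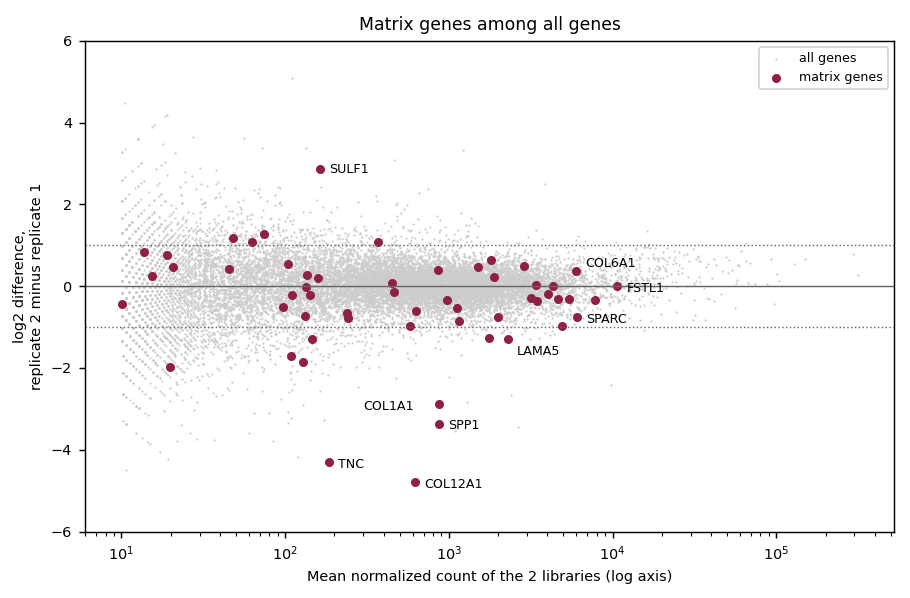
Log2 difference between the XMD892 libraries (replicate 2 minus replicate 1) against the mean normalized count (log axis) for all genes with a mean of at least 10 (grey) and 56 matrix genes (red), with dotted lines at 2-fold; 1 gene lies outside the axis. COL12A1, TNC, SPP1 and COL1A1 lie apart from most genes of similar abundance, and FSTL1 lies on the line of no difference.

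The widest gap was that of COL12A1, with 1119 reads in replicate 1 and 40 in replicate 2, a 27.8-fold difference (log2 -4.80, 95% counting interval -5.32 to -4.38). Its GRCh38 position is chr6:75084326-75206051, minus strand. TNC had 328 and 16 reads, a 19.7-fold difference (-5.21 to -3.66 on the log2 scale), at chr9:115019578-115118257 (minus strand). SPP1 had 1476 and 145 reads, a 10.3-fold difference, at chr4:87975650-87983426 (plus strand). COL1A1 had 1429 and 196 reads, a 7.39-fold difference, at chr17:50183289-50201632 (minus strand). All 4 were well counted in replicate 1. TNC and COL12A1 had 16 and 40 reads in replicate 2, which makes their ratios imprecise there.

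Of all genes, 47.9% were higher in replicate 1. By role, the fibrillar collagens had 7 of 10 genes higher in replicate 1 (median difference -0.57), the fibril-associated collagens 6 of 8 (-0.36), the laminins 7 of 10 (-0.30) and the linkers 3 of 4 (-0.59). The basement membrane collagens were even, with 4 of 8 (-0.07). The microfibril and network collagens had 2 of 6 (0.39), and the transmembrane collagens 1 of 3 (0.20). The glycoproteins had 2 of 4, and the matricellular genes 3 of 4, both with medians of -0.39. These last counts include nearly level genes. FSTL1 counted toward replicate 1 at -0.01, and FN1 and FBN2 toward replicate 2 at 0.01 and 0.03. With total reads as the scale, FN1 and FBN2 turned to -0.09 and -0.07.

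The other genes at least 2-fold higher in replicate 1 had smaller gaps. COL5A3 was 3.96-fold higher on 30 and 7 reads. COL8A1 was 3.61-fold and COL7A1 3.26-fold higher, on 187 and 52 and on 156 and 48 reads. COL22A1 was 2.44-fold higher. Among basement membrane genes, LAMA5 (3039 and 1273 reads) was 2.43-fold higher and HSPG2 (2304 and 967 reads) 2.42-fold. AGRN at 1.96-fold and COL5A1 at 1.95-fold lay just short of 2-fold.

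Toward replicate 2, SULF1 stood out with 36 and 272 reads, a 7.27-fold difference (log2 2.86, 95% counting interval 2.39 to 3.44). Its position is chr8:69466624-69660915, plus strand. COL25A1 was 2.42-fold higher in replicate 2, COL4A4 2.25-fold, COL11A2 2.12-fold and LAMC3 2.11-fold. COL25A1, COL4A4 and COL11A2 rest on at most 100 reads in each library, and LAMC3 had 221 and 476. With total reads as the scale, COL11A2 and LAMC3 no longer reached 2-fold, and AGRN and COL5A1 did, which made the split 13 to 3 in place of 11 to 5.

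**Figure D4:**
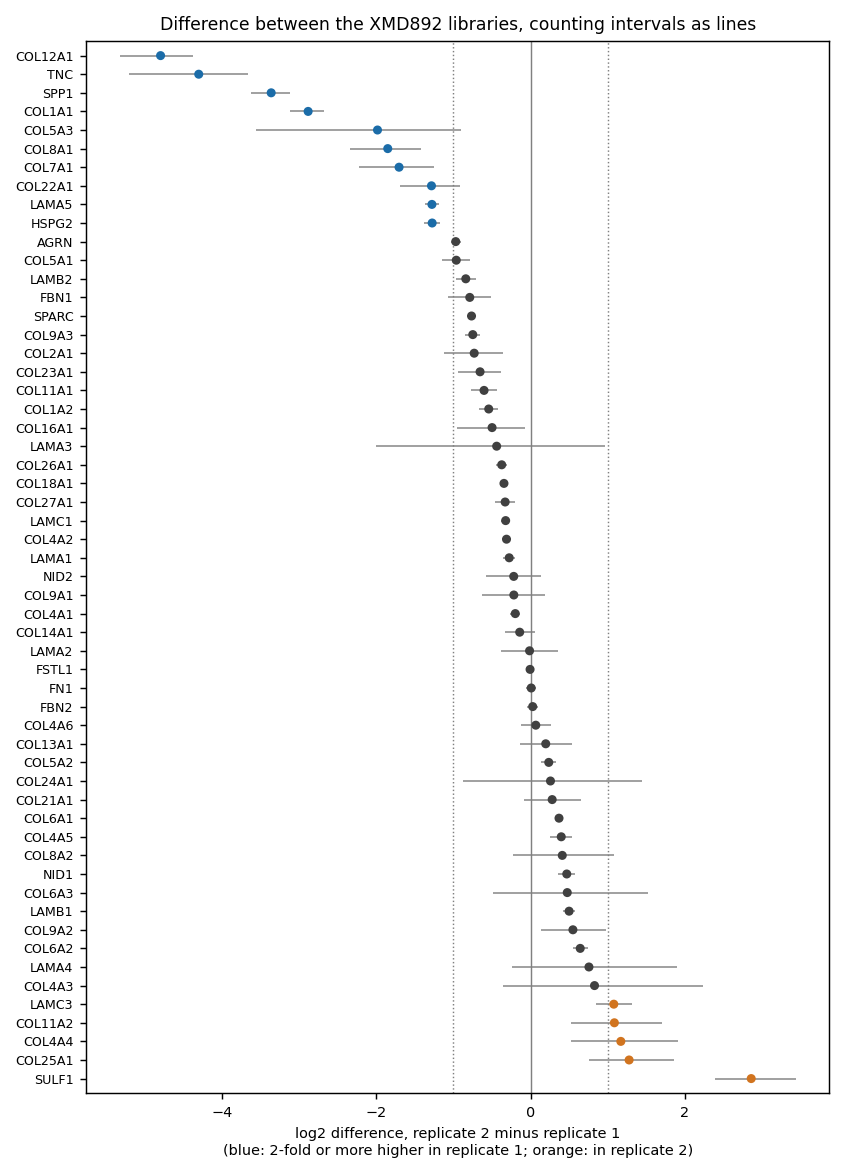
Log2 difference between the XMD892 libraries (replicate 2 minus replicate 1) for 56 members above the minimum of 10 normalized counts, with 95% exact counting intervals as lines and dotted lines at 2-fold. In blue are 10 genes at least 2-fold higher in replicate 1, in orange 5 genes at least 2-fold higher in replicate 2.

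The sequences before the starts of the 3 genes with the widest gaps are shown beside that of FBN2, a gene at nearly the same level in both libraries. They are the bases upstream of the RefSeq start (GRCh38.p14), 5′ to 3′ on the gene's strand, without any base that GENCODE release 29 places in an exon. Capitals mark matches, on either strand, to the motifs CCAAT (bound by NF-Y), GGGCGG (the GC box of SP1 factors), TATAAA (the TATA box), GGAATG (bound by TEAD factors) and TGANTCA (bound by AP-1).
COL12A1, chr6:75206054-75206303, minus strand: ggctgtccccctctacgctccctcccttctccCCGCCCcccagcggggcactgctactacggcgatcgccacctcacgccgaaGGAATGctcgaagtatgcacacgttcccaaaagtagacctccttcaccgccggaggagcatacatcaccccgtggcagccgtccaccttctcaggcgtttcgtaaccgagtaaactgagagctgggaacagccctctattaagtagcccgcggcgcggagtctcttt
TNC, chr9:115118258-115118407, minus strand: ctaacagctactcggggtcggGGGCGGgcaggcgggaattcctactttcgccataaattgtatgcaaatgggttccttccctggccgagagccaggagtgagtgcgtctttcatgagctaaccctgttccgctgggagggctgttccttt
SPP1, chr4:87975464-87975649, plus strand: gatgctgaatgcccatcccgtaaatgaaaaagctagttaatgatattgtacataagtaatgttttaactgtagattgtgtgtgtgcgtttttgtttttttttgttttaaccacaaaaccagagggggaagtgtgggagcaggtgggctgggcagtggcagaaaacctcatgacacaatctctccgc
FBN2, chr5:128538246-128538495, minus strand: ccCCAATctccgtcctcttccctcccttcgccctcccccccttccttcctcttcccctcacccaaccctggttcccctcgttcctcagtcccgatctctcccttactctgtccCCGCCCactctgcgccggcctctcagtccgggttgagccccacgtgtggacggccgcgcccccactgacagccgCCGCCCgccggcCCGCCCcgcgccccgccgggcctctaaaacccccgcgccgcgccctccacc

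In the COL12A1 window GGGCGG matched on the reverse strand with its first base 218 bases before the start, and GGAATG matched 167 bases before it. The TNC window, shortened to 150 bases, held GGGCGG at 229 bases before the start. None of the 5 motifs was found in the 186 bases shown for SPP1. FBN2 held CCAAT at 248 bases and GGGCGG at 137, 63 and 51 bases before the start. RefSeq windows of 250 bases were found for 47 of the 62 genes, with 59 starts. GGGCGG was present at 35 of the 59 starts (59.3%), against 42.6% of 35116 starts of all genes. CCAAT was at 16 (27.1%, against 32.0%), TATAAA at 7 (11.9%, against 10.7%), GGAATG at 6 (10.2%, against 11.9%) and TGANTCA at 2 (3.39%, against 6.57%). No match shown overlaps another. A match is one of letters only.

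Some members lie side by side in the genome. COL4A1 (chromosome 13, 110148963 to 110307233, minus strand) and COL4A2 (110305812 to 110513209, plus strand) are transcribed away from each other, and their annotated ends overlap by 1422 bases. Their differences between the libraries were -0.20 and -0.31 on the log2 scale. COL4A6 (X, 108155607 to 108439497, minus strand) and COL4A5 (108439844 to 108697545, plus strand) are 346 bases apart, with differences of 0.07 and 0.40. COL4A4 (chromosome 2, 227002711 to 227164453, minus strand) and COL4A3 (227164565 to 227314792, plus strand) are 111 bases apart, with differences of 1.17 and 0.83, the second on 9 and 17 reads. The intervals of COL4A6 (-0.13 to 0.27) and COL4A3 (-0.35 to 2.24) included equal levels, and COL4A6 turned to -0.03 with total reads as the scale. COL6A1 and COL6A2, 93046 bases apart on the plus strand of chromosome 21, were both higher in replicate 2, by 1.29-fold and 1.56-fold, while COL18A1 on the same arm was 1.27-fold higher in replicate 1.

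The counting's strand setting is not given in the sources used here, so reads of overlapping genes on opposite strands cannot be told apart. This touches 19 members, and 5 of them with at least 5% of their exon bases: NID2 (30.0%, RTRAF), COL18A1 (16.4%, SLC19A1), HSPG2 (11.7%, LDLRAD2), LAMA1 (10.3%, AP002409.1) and SPARC (7.89%, CLMAT3).

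Enzymes and chaperones that make collagen were led by SERPINH1, P4HB and PPIB. The list has 30 genes, of which 29 were in the table, with a median difference of -0.005. At 1 RPKM or more in each library were 23 of the 29, against 11471 of 19262 over all genes. SERPINH1, the collagen chaperone HSP47, stood at 116 RPKM in replicate 1 and 111 in replicate 2. P4HB, a subunit of prolyl 4-hydroxylase and a disulfide isomerase, was at 77.5 and 71.0 RPKM, and the prolyl isomerase PPIB at 69.4 and 76.9 RPKM. Of the 29, 4 (13.8%) were at least 2-fold apart, a share near the 10.9% of all genes. The prolyl hydroxylase subunits P4HA1 (692 and 1787 reads) and P4HA2 (100 and 280 reads) were 2.54-fold and 2.74-fold higher in replicate 2. PLOD2, a lysyl hydroxylase, was 2.74-fold higher there too (474 and 1321 reads), and COLGALT2, a collagen galactosyltransferase, was 2.27-fold higher in replicate 1 on 48 and 21 reads. P4HA1, P4HA2 and PLOD2 are known targets of the low-oxygen response. The other genes of the list were not sorted by that response, so P4HA1, P4HA2 and PLOD2 do not speak for the list. Of 13 genes of that response, 10 were higher in replicate 2 and 6 of them by at least 2-fold, against 52.1% and 4.76% of all genes, with a median difference of 0.98. The other 3 were higher in replicate 1, 1 of them by at least 2-fold. The part of that response in these differences was not tested.

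Matrix receptors were led by ITGB1, the common β integrin, at 64.5 RPKM in replicate 1 and 88.3 in replicate 2. DAG1 (dystroglycan, a laminin receptor) stood at 52.5 and 34.1 RPKM, and the heparan sulfate proteoglycan SDC4 at 45.7 and 40.5 RPKM. Of 28 receptors 25 were listed and 22 lay above the minimum, of which 19 were higher in replicate 1, against 47.9% of all genes, with a median difference of -0.24. CD44, which binds hyaluronan and osteopontin, had 169 and 28 reads, 5.97-fold higher in replicate 1, and the integrin ITGB8 had 139 and 51, a 2.74-fold difference. These 2 of 22 (9.09%) were the only receptors at least 2-fold apart, a share near the 10.9% of all genes. No receptor was 2-fold higher in replicate 2, against 4.76% of all genes.

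Matrix proteases and their inhibitors were led by MMP14, a membrane-bound collagenase, at 26.4 RPKM in replicate 1 and 30.4 in replicate 2. MMP15 was at 25.4 and 24.4 RPKM, and MMP17 at 16.4 and 14.9 RPKM. Of 25 such genes 20 were listed, and 7 of 20 were at least 2-fold higher in replicate 1, against 6.14% of all genes, while 0 were so in replicate 2, against 4.76%. PLAT and PLAU, the plasminogen activators, were 3.0-fold and 2.53-fold higher, TIMP1 and TIMP4, inhibitors of metalloproteases, 2.37-fold and 2.61-fold, MMP24 2.84-fold and ADAMTS5 3.13-fold. The median difference of the list was -0.30.

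Markers were read beside these differences. All 15 genes marking pluripotent cells reached 1 RPKM in both libraries, against 11471 of 19262 over all genes. Their summed level was 2684 RPKM in replicate 1 and 3019 in replicate 2, and 2 of them (13.3%) were at least 2-fold higher in replicate 2, against 4.76% of all genes. POU5F1, at 734 and 1430 RPKM, made up the largest part of these sums. Gene by gene the list was nearly even. The difference pointed to replicate 1 for 8 of the 15 and to replicate 2 for the remaining 7. Its median was -0.05. Of 16 fibroblast and mesenchymal markers 9 were listed, with summed levels of 120.03 and 81.9 RPKM. LUM, DCN, POSTN, TWIST1, PRRX1, MEOX1 and FAP were not listed, and PDGFRA had 28 and 20 reads. Of the 7 mesenchymal markers above the minimum, 4 were higher in replicate 1 and 3 in replicate 2. A gap of at least 2-fold was found for 3 of these 7 (42.9%), against 10.9% of all genes. TAGLN was 10.8-fold and VIM 3.19-fold higher in replicate 1, while THY1 was 2.04-fold higher in replicate 2. Of 12 endoderm markers 4 were listed, at a summed 0.872 and 0.632 RPKM, with GATA6, SOX17 and FOXA2 not listed. Of 8 endothelial markers 6 were listed, at 10.2 and 10.8 RPKM, mostly KDR, which pluripotent cells also express. Of 10 amnion and trophoblast markers 5 were listed, at 10.3 and 8.97 RPKM.

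Targets of YAP and SRF, factors that respond to cell tension, were also higher in replicate 1, at a summed 271 RPKM against 97.3. All 12 tested genes of that list were higher in replicate 1 and 7 of them by at least 2-fold, against 47.9% and 6.14% of all genes, with a median difference of -1.52. TAGLN, MYL9 and FLNC had 4515, 2122 and 1879 reads in replicate 1 and 423, 302 and 164 in replicate 2. The lists share genes: TAGLN and ACTA2 are also among the fibroblast and mesenchymal markers. The part of these genes in the matrix differences was not tested. RNA quality and stress genes, mitochondrial transcripts and chaperones among them, had 7 of 13 higher in replicate 1, none 2-fold apart, and took 4.28% and 4.84% of the reads.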

How the data were processed

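RNA of 4 samples of H1 cells is labelled, 2 in E8 and 2 with XMD892. The deposited table holds a normalized signal, which the values show to be gene counts divided by 1 size factor per library. Per the submitters' processing notes, Trimmomatic 0.36, STAR, featureCounts 1.5.3, DESeq2 and hg38 were used, without stated roles. Of its 9 value columns, 7 matched no sample's labels and were not used, so the intended test of XMD892 against E8 was not run. Whole reads were recovered by dividing by the step of each column (100% of values within 0.01 of a whole number; size factors 0.932 and 0.948). Exon lengths are the merged exons of GENCODE release 29 (GRCh38). Intervals are exact binomial (Clopper-Pearson, 95%) on the reads, rescaled by the size factors. Computation used Python 3.11.15, numpy 2.4.6, scipy 1.17.1 and pandas 2.3.3, and the interval and difference code was tested on simulated data. All members were named except 1, which with 1 gene of another list is not reported here by name but is counted. Of the genes of other lists, those named are the 3 highest by RPKM, those at least 2-fold apart and, for the marker and context lists, examples chosen after their values were seen. The members, lists, chain pairs, shown promoters and motifs were chosen with earlier results of these data known. Alternatives were the length, library size, scale, pseudocount and minimum.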

Additional observations from a re-analysis of the deposited data

How the results depend on the processing

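No paired analysis was possible because the samples in E8 alone have no matched column, and the tests of XMD892 against E8 with their alternatives (limma, other tools, left-out replicates, pseudocount) were not run. The number of members at 1 RPKM or more, 33 with both libraries required, ranged from 34 to 40 with either library left out. It was 37 with the longest transcript as the length and 35 without mitochondrially encoded genes in the library size. Each of these alternatives could only keep or raise the count, so they do not show whether it could be lower. The median level of 2.42 RPKM ranged from 1.45 to 2.59 with either library left out; it was 1.45 without replicate 1. The number of members at least 2-fold apart, 16, ranged from 14 to 18 over the other scales, pseudocount and minimums. With total reads as the scale, the median difference was -0.38 in place of -0.28, and the median of all genes moved from 0.02 to -0.08. Of the 16 members at least 2-fold apart, 14 remained so with total reads, and all 16 with quantile normalization and with a pseudocount of 5; none of these 16 changed direction, while FN1, FBN2 and COL4A6 turned with total reads to -0.09, -0.07 and -0.03. With the longest transcript as the length, an alternative chosen after seeing the data, COL4A1 to COL4A2 turned to 0.828 in replicate 1 and 0.896 in replicate 2. There COL4A2 is 6494 bases long in place of 19293 and COL4A1 6616 in place of 14738. The other 30 ratios kept their order or had an interval that included 1. Of all 32 ratios, however, 27 others moved outside their counting interval and 3 stayed within it, so the size of most ratios depends on the length used. Depth limits the members under 100 reads, and the number of libraries, 1 on each side, limits every difference.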
